A study of Mus musculus with 18 samples.

Results

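The genes described here are 30 genes with which a cell makes, takes up, moves and exports cholesterol, found by their symbols among the 55491 rows of the count table. They comprised 8 enzymes that lead to squalene, 10 enzymes that turn squalene into cholesterol, 5 regulators of the sterol-sensing SREBP system, 3 genes of uptake and transport inside the cell, and 4 genes of the liver X receptors (LXRs) and cholesterol efflux. All 30 passed the filter on low counts, as did 16174 genes in all.

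The 18 libraries hold the polyadenylated RNA of tail tendon fibroblasts (TFs), cells grown out of the tail tendons of mice of both sexes aged 4 to 6 months and kept in 20% or 1% O2 for 4 days, 3 libraries to each of 6 groups. The donors of Ctrl TFs lacked Cre and are labelled wild-type, and those of cKO TFs were *Hif1a* fl/fl mice that carry Scx-Cre, in which the promoter of the tendon gene *Scx* drives the recombinase, so that deletion depends on that promoter having been active in a cell. The third arm was Ctrl TFs treated with Cre gesicles, vesicles that deliver the recombinase to cultured cells. These cells are also labelled wild-type, with no floxed allele named. The study's methods describe Cre-negative Ctrl mice as *Hif1a* flox/flox, so labels and methods differ on whether Ctrl TFs carry floxed alleles. The study asked how low O2 and loss of *Hif1a* change the RNA of these cells. The labels and the study's methods give different serum percentages for the cultures, and serum is a source of cholesterol for cultured cells.

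*Hif1a*, the targeted gene, was not lower in the libraries labelled cKO. Its level in 20% O2 was 335, 340 and 371 CPM (counts scaled by library size and composition) in Ctrl TFs, and libraries labelled cKO held 406, 294 and 431 CPM. Its level in 1% O2 was 488, 365 and 406 CPM in Ctrl TFs, and libraries labelled cKO held 428, 398 and 504 CPM. The groups overlapped at both O2 levels, with log2 fold changes of 0.11 (SE 0.14, adjusted p = 0.693) and 0.08 (SE 0.14, adjusted p = 0.778). A count over the whole gene does not show whether the floxed part was missing. By qPCR, another assay, the study reported reduced *Hif1a* in cKO tail TFs kept longer in culture than these. Library totals ranged from 26967440 to 51806453 counts, except in the library of replicate 1 labelled cKO in 1% O2, which held 6857558 counts and cannot show less than 0.437 CPM (3 counts). The 9 tendon fibroblast markers were above this floor in all 18 libraries (*Tnmd* at 35 to 210 CPM), while *Ptprc* of leukocytes and *Epcam* of epithelia reached at most 0.162 and 0.207 CPM. The leukocyte markers *Csf1r* and *Cd68* reached 2.36 and 2.66 CPM. Of the chondrocyte markers, *Sox9* stood at 20.6 to 50.8 CPM, while *Col2a1* and *Acan* reached at most 3.68 and 0.0232 CPM. Of the muscle markers, *Acta1* and *Des* stood at 9.32 to 41.8 and 1.72 to 7.46 CPM, and *Myod1* reached at most 0.0255 CPM. The summed endothelial markers were at 25.4 to 76.5 CPM in 20% O2 and 11.4 to 40 CPM in 1% O2 and the summed adipocyte markers at 1.53 to 3.23 and 2.7 to 6.97 CPM, nearly all of it *Tek* and *Fabp4*, with *Pecam1*, *Cdh5* and *Adipoq* reaching at most 0.291, 0.65 and 0.0259 CPM. In bulk RNA, fewer cells of a type and less RNA per cell cannot be told apart. Of 12 genes known to be induced by low O2, 9, 8 and 8 rose in 1% O2 in the Ctrl arm, the arm labelled cKO and the gesicle arm. The shares of all genes tested that rose were 2.01%, 1.94% and 1.64%.

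Cells make cholesterol from acetyl-CoA through mevalonate and squalene in a long chain of steps, several of which consume molecular oxygen. SREBP transcription factors switch on most of these enzymes when sterols in the membrane are low, while SCAP escorts SREBP to the Golgi for activation and the INSIG proteins hold SCAP back when sterols are high. LXRs sense oxidized sterols and switch on genes that export cholesterol.

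The set of RefSeq promoter windows used here held none for *Fdps*, *Fdft1*, *Sqle*, *Stard4*, *Npc1* and *Abcg1*. For the other 24 of the 30 genes it held 33 windows of 250 bases before the start site, on GRCm38.p6. The letters CCAAT, which the factor NF-Y binds, were present on either strand in 60.6% of these windows and in 33.8% of 32851 windows of the same length for all genes. The E-box CACGTG was present in 18.2% and 6.02%, and the core of the hypoxia response element ACGTG, which every CACGTG contains, in 18.2% and 16.6%. TCACNCCAC, a form of the sterol response element, was found in 1 member, *Hmgcs1* (3.03% against 1.05%). The windows shown are those of *Hmgcs1* and *Mvd*, enzymes that fell in 1% O2, of *Insig1* and *Insig2*, paralogs with opposite responses, and of *Nr1h3*, which rose. Capitals mark these motifs on either strand, ATTGG being CCAAT on the other strand, and exonic bases are left out. Their places are chr13:119690101-119690350 (plus strand), chr8:122443423-122443672 (minus), chr5:28071162-28071362 (plus), chr1:121332590-121332839 (minus) and chr2:91195152-91195366 (minus).
Hmgcs1: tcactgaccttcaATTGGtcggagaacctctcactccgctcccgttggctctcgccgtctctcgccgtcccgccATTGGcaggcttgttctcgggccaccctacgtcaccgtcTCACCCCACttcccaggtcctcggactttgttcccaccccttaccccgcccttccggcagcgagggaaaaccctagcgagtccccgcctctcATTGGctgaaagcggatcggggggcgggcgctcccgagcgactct
Mvd: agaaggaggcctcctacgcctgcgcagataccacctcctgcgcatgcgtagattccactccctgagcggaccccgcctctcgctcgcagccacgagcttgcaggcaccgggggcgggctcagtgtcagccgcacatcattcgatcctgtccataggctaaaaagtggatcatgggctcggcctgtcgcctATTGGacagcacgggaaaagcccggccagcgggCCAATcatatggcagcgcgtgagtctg
Insig1: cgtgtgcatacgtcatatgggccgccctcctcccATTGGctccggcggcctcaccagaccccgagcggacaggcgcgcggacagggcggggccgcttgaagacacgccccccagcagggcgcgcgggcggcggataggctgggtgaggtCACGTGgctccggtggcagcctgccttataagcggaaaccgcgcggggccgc
Insig2: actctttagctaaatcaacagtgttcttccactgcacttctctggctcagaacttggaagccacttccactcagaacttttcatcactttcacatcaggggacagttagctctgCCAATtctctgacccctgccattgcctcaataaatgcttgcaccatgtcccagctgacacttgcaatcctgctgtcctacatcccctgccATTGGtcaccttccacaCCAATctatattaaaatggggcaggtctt
Nr1h3: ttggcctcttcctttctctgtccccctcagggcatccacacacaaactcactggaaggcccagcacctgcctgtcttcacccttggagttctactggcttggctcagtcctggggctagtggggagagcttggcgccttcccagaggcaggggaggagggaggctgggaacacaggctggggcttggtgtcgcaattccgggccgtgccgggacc
The window of *Nr1h3* held none of the 4 motifs, that of *Insig1* held CACGTG and CCAAT, and that of *Insig2* held CCAAT alone. The set holds 3 windows for *Insig2* and 2 for *Nr1h3*, and those not shown hold none of the 4 motifs.

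In 1% O2 the synthesis enzymes were lower, *Nr1h3* rose, and *Insig1* and *Insig2* moved in opposite directions. By edgeR all 18 enzymes had a negative log2 fold change in each of the 3 arms, but under some alternatives *Pmvk* and *Tm7sf2* in Ctrl TFs and *Ebp* in the libraries labelled cKO turned positive (up to 0.04, 0.01 and 0.14). A gene was called where edgeR gave an adjusted p under 0.05 and a fold of at least 1.5. In Ctrl TFs 5 of the 30 genes fell and 1 rose, where 0.674% and 2.01% of all genes tested did so. In the libraries labelled cKO 12 fell and 1 rose (1.07% and 1.94% of all genes), and in gesicle-treated Ctrl TFs 13 fell and 1 rose (0.767% and 1.64%). Averaged over the 3 arms, 11 fell and 1 rose (5.13% and 5.36%), and without the fold minimum 20 were lower and 3 higher (11.7% and 12.9%). The median log2 fold change of the 18 enzymes was -0.39 in Ctrl TFs, -0.75 in the libraries labelled cKO and -0.67 in gesicle-treated TFs, while the median of all genes lay between -0.04 and -0.01. All 3 libraries in 1% O2 were below all 3 in 20% O2 for 10, 17 and 16 of the 18 enzymes in these arms, as for 13.3%, 10.2% and 11% of all genes tested. Nothing in the labels says that the replicates of a group are separate animals, although the methods give 3 biological replicates, and the p-values measure the spread between these libraries. Same-numbered Ctrl and gesicle-treated libraries correlated at both O2 levels, while the mean of the arms treats all libraries as independent.

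**Figure D1:**
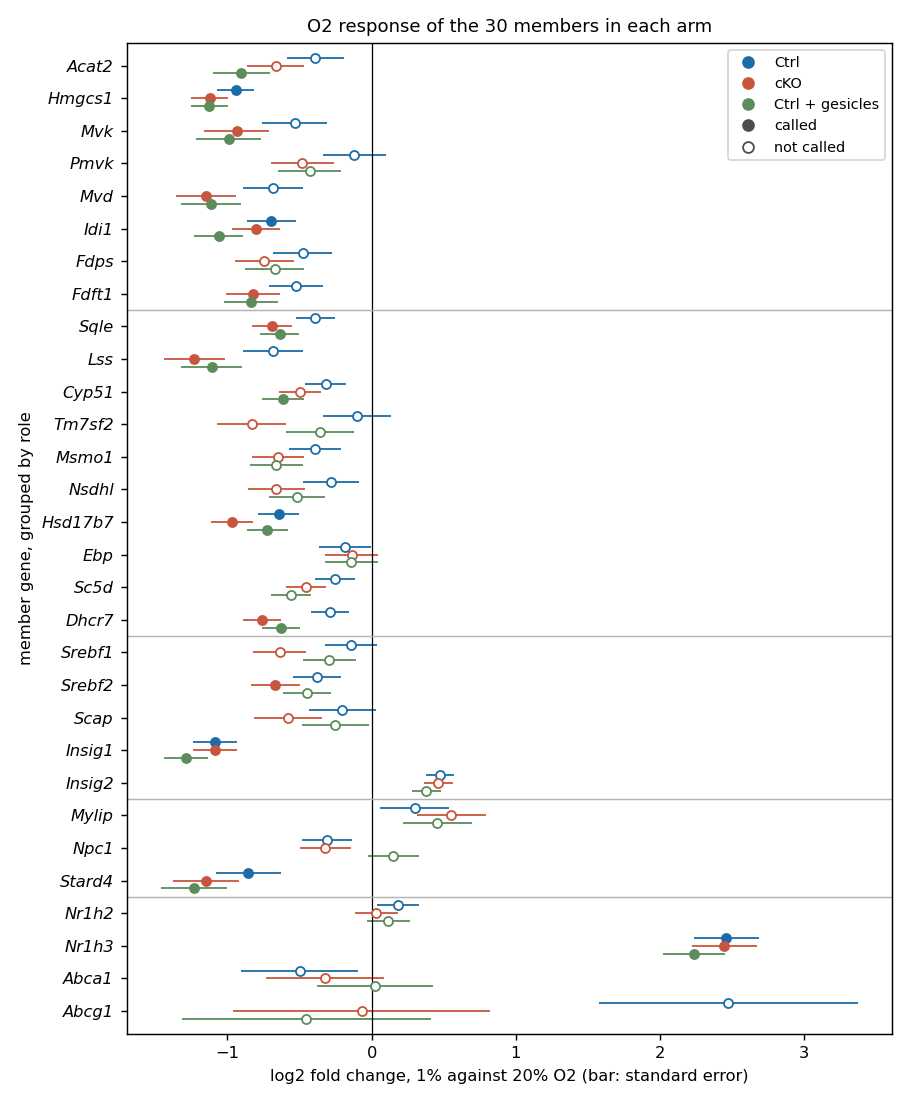
Log2 fold change in 1% against 20% O2 (x axis) of the 30 genes (y axis, grouped by role from synthesis at the top to efflux at the bottom), with 1 point per arm and bars of 1 standard error. Filled points were called. All 54 enzyme points lie left of 0, while *Nr1h3* lies between 2.24 and 2.46 in the 3 arms.

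*Hmgcs1*, the enzyme that condenses acetyl-CoA with acetoacetyl-CoA, had the highest level per kilobase of the 30 genes in Ctrl TFs in 20% O2 (94.2 ± 2.96 CPM per kb, SD, n = 3) and fell in all 3 arms. In 20% O2, *Hmgcs1* stood at 428, 422 and 448 CPM in Ctrl TFs, at 462, 436 and 514 CPM in the libraries labelled cKO and at 524, 412 and 528 CPM in gesicle-treated TFs. In 1% O2, *Hmgcs1* stood at 248, 203 and 224 CPM, at 193, 232 and 223 CPM and at 258, 211 and 202 CPM in the same order. Every library in 1% O2 was below every library in 20% O2, and the log2 fold changes were -0.94 (SE 0.13, adjusted p = 0.000545), -1.12 (SE 0.13, adjusted p = 0.000166) and -1.13 (SE 0.13, adjusted p = 0.000146). *Hmgcs1* kept its call in Ctrl TFs under all 30 alternatives tried. Its level per kilobase was within the spread of the next gene, *Idi1* (91.7 ± 5.3 CPM per kb, SD, n = 3).

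*Idi1*, which isomerizes isopentenyl diphosphate, also fell in each arm. In 20% O2, *Idi1* stood at 300, 334 and 330 CPM in Ctrl TFs, 375, 340 and 410 CPM in the libraries labelled cKO and 407, 313 and 381 CPM with gesicles. In 1% O2, *Idi1* stood at 250, 158 and 188 CPM, 207, 245 and 193 CPM and 214, 153 and 161 CPM. The 2 O2 levels did not overlap, and *Idi1* fell by 0.69 (SE 0.17, adjusted p = 0.0325), 0.80 (SE 0.17, adjusted p = 0.015) and 1.06 (SE 0.17, adjusted p = 0.00278) on the log2 scale. Its call in Ctrl TFs held under 24 of 30 alternatives. *Hmgcs1* and *Idi1* share 557 and 323 exonic bases with the gene models *Gm48342* and *Gm48574*.

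*Mvd*, the decarboxylase that ends the mevalonate steps, was called in the libraries labelled cKO and with gesicles. In 20% O2, *Mvd* stood at 50.2, 54.3 and 52.8 CPM in Ctrl TFs, 56.6, 83.4 and 67.4 CPM in the libraries labelled cKO and 75.7, 47.3 and 65.2 CPM with gesicles. In 1% O2, *Mvd* stood at 43.2, 26.5 and 28.3 CPM, 26.2, 35 and 31.8 CPM and 32.8, 25.1 and 29 CPM. No library in 1% O2 reached the lowest in 20% O2. The log2 fold changes were -0.68 in Ctrl TFs (SE 0.21, adjusted p = 0.0878), -1.15 in the libraries labelled cKO (SE 0.21, adjusted p = 0.0061) and -1.12 with gesicles (SE 0.21, adjusted p = 0.00843).

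*Mvk*, mevalonate kinase, and *Fdft1*, squalene synthase, followed the same course. In 20% O2, *Mvk* stood at 39.9, 44.1 and 39.6 CPM in Ctrl TFs, 45.8, 65 and 52.8 CPM in the libraries labelled cKO and 60.2, 44.2 and 50.6 CPM with gesicles, and in 1% O2 at 40.9, 20.9 and 23.5 CPM, 27.6, 28.8 and 29 CPM and 29.9, 19.4 and 28.7 CPM. Ctrl replicate 1 in 1% O2 lay within the range of the 20% O2 libraries, and the other arms did not overlap. *Mvk* changed by -0.53 in Ctrl TFs (adjusted p = 0.226) and fell by 0.94 and 0.99 on the log2 scale in the other arms (adjusted p = 0.0295 and 0.027).

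In 20% O2, *Fdft1* stood at 154, 143 and 152 CPM in Ctrl TFs, 162, 220 and 180 CPM in the libraries labelled cKO and 200, 141 and 179 CPM with gesicles, and in 1% O2 at 137, 81.9 and 93.4 CPM, 103, 114 and 101 CPM and 115, 78.7 and 97.4 CPM. The 2 O2 levels did not overlap, and *Fdft1* was called in the libraries labelled cKO (log2 fold change -0.82, SE 0.19, adjusted p = 0.0227) and with gesicles (-0.84, SE 0.19, adjusted p = 0.0248). *Fdft1* shares 774 exonic bases with *Ctsb* on the other strand, and the sources used here do not say whether counting used strand.

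*Acat2*, the thiolase that joins acetyl-CoA units, was called with gesicles and in the mean of the arms. In 20% O2, *Acat2* stood at 146, 150 and 141 CPM in Ctrl TFs, 156, 148 and 184 CPM in the libraries labelled cKO and 191, 152 and 171 CPM with gesicles, and in 1% O2 at 159, 84.2 and 90 CPM, 98.3, 107 and 102 CPM and 109, 75.8 and 90.4 CPM. The library of Ctrl replicate 1 in 1% O2 was above all 3 Ctrl libraries in 20% O2, and the other arms did not overlap. The log2 fold change was -0.90 with gesicles (SE 0.20, adjusted p = 0.0214) and -0.65 in the mean of the arms (SE 0.11, adjusted p = 0.000807).

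*Fdps*, farnesyl diphosphate synthase, was called by edgeR in the mean of the arms and in no single arm (log2 fold change -0.63, SE 0.12, adjusted p = 0.0014). In 20% O2, *Fdps* stood at 280, 281 and 302 CPM in Ctrl TFs, 301, 487 and 319 CPM in the libraries labelled cKO and 357, 269 and 335 CPM with gesicles, and in 1% O2 at 271, 160 and 187 CPM, 214, 252 and 196 CPM and 223, 167 and 213 CPM, without overlap within an arm. Under 1 of 30, 6 of 30 and 5 of 29 alternatives it was called in the Ctrl arm, the arm labelled cKO and the gesicle arm. It shares 1124 exonic bases on its own strand with the gene model *Gm43738*, so its counts may be split between them. *Pmvk*, phosphomevalonate kinase, was not called in any arm (log2 fold changes -0.48 to -0.12). Of the 8 enzymes up to squalene, 2, 5 and 6 were called lower in the 3 arms (0.674%, 1.07% and 0.767% of all genes tested). Their median log2 fold changes were -0.53, -0.81 and -0.95.

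**Figure D2:**
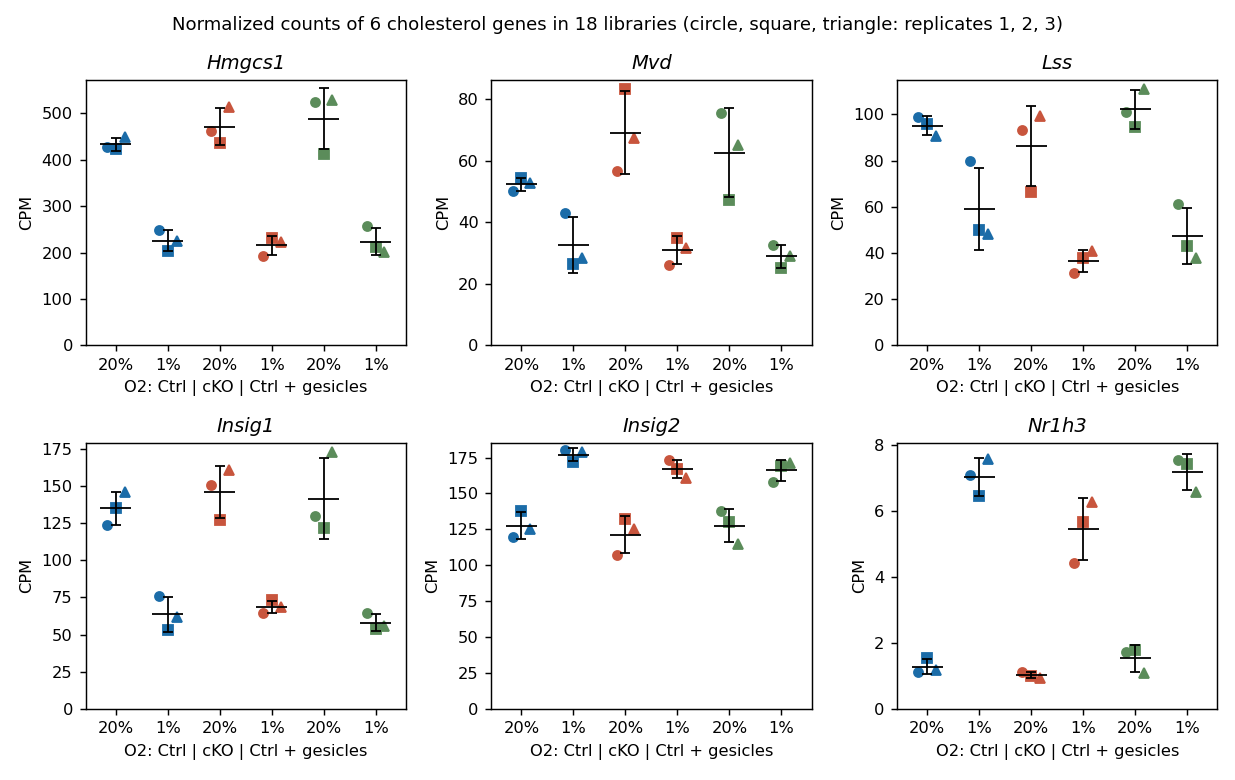
Normalized counts (y axis, CPM from 0) of 6 of the 30 genes in each library by arm and O2 level (x axis), with the mean and SD of 3 replicates as bars. *Hmgcs1*, *Mvd* and *Insig1* are lower and *Insig2* and *Nr1h3* higher in all 9 libraries in 1% O2 than in all 9 in 20% O2, and *Lss* in Ctrl replicate 1 in 1% O2 (79.7 CPM) lies above the lowest 20% O2 library (66.6 CPM).

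Among the 10 enzymes after squalene, *Lss* and *Hsd17b7* had the largest changes in the mean of the arms. *Lss* closes squalene epoxide into lanosterol. In 20% O2, *Lss* stood at 98.8, 95.7 and 90.8 CPM in Ctrl TFs, 93.4, 66.6 and 99.2 CPM in the libraries labelled cKO and 101, 94.4 and 111 CPM with gesicles. In 1% O2, *Lss* stood at 79.7, 49.8 and 48.1 CPM, 31.4, 37.9 and 40.7 CPM and 61.2, 42.9 and 38 CPM. The O2 levels did not overlap within any arm, and the log2 fold changes were -0.68 in Ctrl TFs (SE 0.21, adjusted p = 0.0912), -1.23 in the libraries labelled cKO (SE 0.21, adjusted p = 0.00456) and -1.11 with gesicles (SE 0.21, adjusted p = 0.00911).

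*Hsd17b7*, which reduces a keto group during demethylation of the sterol ring, was called in all 3 arms. In 20% O2, *Hsd17b7* stood at 181, 187 and 208 CPM in Ctrl TFs, 180, 127 and 181 CPM in the libraries labelled cKO and 174, 171 and 213 CPM with gesicles. In 1% O2, *Hsd17b7* stood at 123, 118 and 127 CPM, 82.5, 83 and 84.2 CPM and 128, 116 and 93 CPM. The levels did not overlap within an arm, and *Hsd17b7* fell by 0.64 (SE 0.14, adjusted p = 0.0192), 0.97 (SE 0.14, adjusted p = 0.00148) and 0.72 (SE 0.14, adjusted p = 0.0118) on the log2 scale. Same-numbered Ctrl libraries pair, and a block for that number within the arm gave it an adjusted p of 0.059 in Ctrl TFs.

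*Dhcr7*, which catalyses the last step of one branch of the pathway, was called in the libraries labelled cKO and with gesicles. In 20% O2, *Dhcr7* stood at 37.7, 41.8 and 45.5 CPM in Ctrl TFs, 46.8, 45.6 and 51.2 CPM in the libraries labelled cKO and 43.8, 40.3 and 55 CPM with gesicles, and in 1% O2 at 38.7, 30.8 and 32.9 CPM, 27, 28 and 29.7 CPM and 32.9, 28.4 and 28.5 CPM. The 2 O2 levels overlapped in the Ctrl arm and in neither of the others. The log2 fold changes were -0.29 in Ctrl TFs (SE 0.13, adjusted p = 0.268), -0.76 in the libraries labelled cKO (SE 0.13, adjusted p = 0.00479) and -0.63 with gesicles (SE 0.13, adjusted p = 0.0158).

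*Sqle*, *Cyp51*, *Msmo1* and *Sc5d* encode the enzymes among the 18 that use molecular oxygen. In the Ctrl arm, the arm labelled cKO and the gesicle arm, 0, 1 and 2 of these 4 were called lower. The shares of all genes tested were 0.674%, 1.07% and 0.767%. *Sqle* makes squalene epoxide. In 20% O2, *Sqle* stood at 309, 297 and 318 CPM in Ctrl TFs, 308, 333 and 336 CPM in the libraries labelled cKO and 365, 283 and 360 CPM with gesicles. In 1% O2, *Sqle* stood at 279, 200 and 226 CPM, 171, 225 and 209 CPM and 239, 201 and 207 CPM. All 9 libraries in 1% O2 were below all 9 in 20% O2, and the log2 fold changes were -0.39 (SE 0.14, adjusted p = 0.141), -0.69 (SE 0.14, adjusted p = 0.0106) and -0.64 (SE 0.14, adjusted p = 0.0195).

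*Cyp51*, which removes a methyl group from lanosterol, was called with gesicles (log2 fold change -0.61, SE 0.14, adjusted p = 0.0326). In 20% O2, *Cyp51* stood at 345, 357 and 340 CPM in Ctrl TFs, 360, 319 and 421 CPM in the libraries labelled cKO and 436, 348 and 414 CPM with gesicles, and in 1% O2 at 334, 238 and 263 CPM, 234, 277 and 267 CPM and 303, 232 and 248 CPM. The O2 levels did not overlap within an arm. In the mean of the arms all 4 oxygen-using enzymes passed the adjusted p without the fold minimum, with log2 fold changes from -0.57 to -0.42 and a lowest adjusted p of 0.000119, and none reached a fold of 1.5 there. *Msmo1* stood at 236 to 611 CPM and *Sc5d* at 157 to 288 CPM over the 18 libraries, and edgeR called neither in an arm, while 4 of 30 alternatives called *Msmo1* in the arm labelled cKO, and 7 of 29 called *Msmo1* and 2 of 29 *Sc5d* with gesicles.

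*Nsdhl*, *Tm7sf2* and *Ebp* were called in none of the arms by edgeR, while 3 of 30 alternatives called *Nsdhl* and 3 *Tm7sf2* in the arm labelled cKO. *Nsdhl* and *Tm7sf2*, a dehydrogenase and a reductase of sterols, passed the adjusted p in the mean of the arms without the fold minimum (log2 fold changes -0.49 and -0.43, adjusted p = 0.00556 and 0.0312), and *Ebp*, a sterol isomerase, did not (-0.16, adjusted p = 0.298). *Tm7sf2* had the lowest level per kilobase of the 18 enzymes in Ctrl TFs in 20% O2 (2.99 CPM per kb), and it shares 532 exonic bases with *Vps51* on the same strand. Of the 10 enzymes after squalene, 1, 4 and 5 were called lower in the 3 arms (0.674%, 1.07% and 0.767% of all genes tested). Their median log2 fold changes were -0.30, -0.68 and -0.62.

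The Ctrl library of replicate 1 in 1% O2 stood apart in these enzymes. It was the highest of the 3 Ctrl libraries in 1% O2 for 17 of the 18 enzymes, which summed to 2780 CPM in it against 1880 and 2110 CPM in replicates 2 and 3 and 3120 to 3280 CPM in the Ctrl libraries in 20% O2. Against the mean of the 20% O2 libraries, its median difference over the enzymes was -0.09 on the log2(CPM + 0.5) scale, while those of the other 8 libraries in 1% O2 lay between -0.83 and -0.50. The same library had the highest summed level of the 12 low-O2 genes among the Ctrl libraries in 1% O2 (4690 CPM against 3900 and 4250 CPM). By gene it was the highest of the 3 for 6 of the 12 and the lowest for the other 6. *Ldha* alone gave 2590 CPM of its sum. Without this library, 9 genes were called in Ctrl TFs in place of 6, 7 of them enzymes. *Hsd17b7* and *Stard4* lost their calls there (adjusted p = 0.0523 and 0.0882). The median of the enzymes was -0.67 in place of -0.39. Without the shallow library labelled cKO, 8 of the 30 genes were called in that arm in place of 13. In the Ctrl arm 3 genes were called without replicate 3 in 20% O2 or without replicate 2 in 1% O2. In the gesicle arm, where 14 were called, 6 were called without replicate 3 in 1% O2, 7 without replicate 2 in 1% O2 or replicate 3 in 20% O2, and 9 without replicate 1 in 20% O2.

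**Figure D3:**
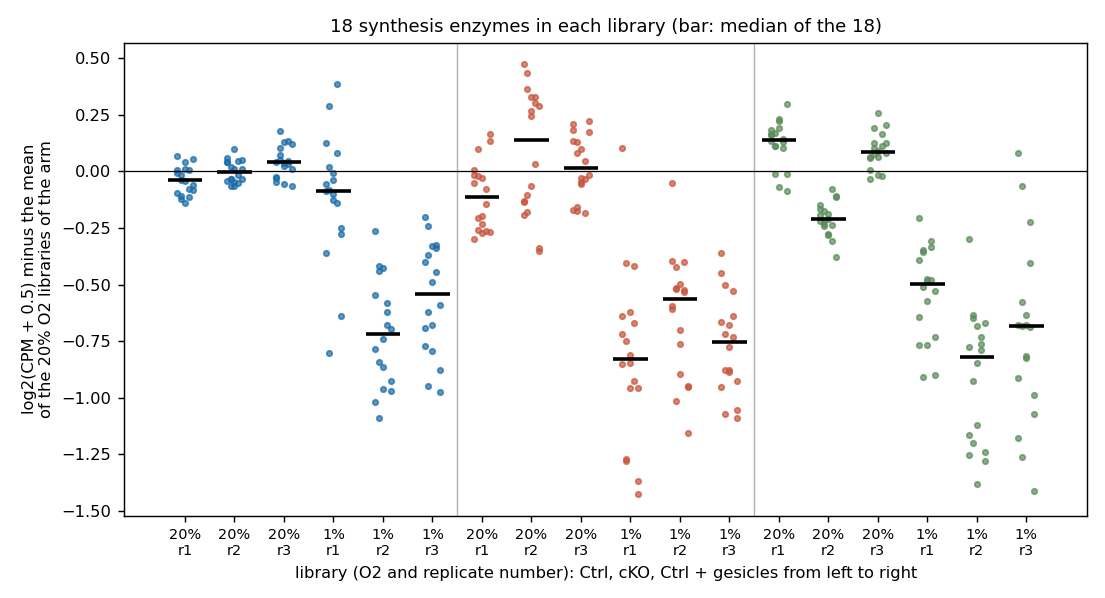
Difference on the log2(CPM + 0.5) scale of each of the 18 enzymes (points) from the mean of the 3 libraries in 20% O2 of its arm (y axis), in each of the 18 libraries (x axis), with the median of the enzymes as a bar. The bar of Ctrl replicate 1 in 1% O2 is at -0.09, and the bars of the other 8 libraries in 1% O2 are between -0.83 and -0.50.

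Of the SREBP regulators, *Insig1* fell and its paralog *Insig2* was higher in 1% O2. In 20% O2, *Insig1* stood at 124, 135 and 146 CPM in Ctrl TFs, 151, 127 and 161 CPM in the libraries labelled cKO and 130, 122 and 173 CPM with gesicles. In 1% O2, *Insig1* stood at 76.2, 52.9 and 62.1 CPM, 64.5, 73.1 and 68.3 CPM and 64.5, 53.7 and 55.7 CPM. All libraries in 1% O2 were below all in 20% O2, and *Insig1* fell by 1.08 (SE 0.15, adjusted p = 0.000755), 1.09 (SE 0.15, adjusted p = 0.00104) and 1.29 (SE 0.15, adjusted p = 0.000232) on the log2 scale.

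In 20% O2, *Insig2* stood at 120, 138 and 125 CPM in Ctrl TFs, 107, 132 and 125 CPM in the libraries labelled cKO and 138, 130 and 115 CPM with gesicles. In 1% O2, *Insig2* stood at 180, 172 and 179 CPM, 173, 167 and 161 CPM and 158, 169 and 171 CPM. All libraries in 1% O2 were above all in 20% O2. The log2 fold changes were 0.47 (SE 0.10, adjusted p = 0.0137), 0.46 (SE 0.10, adjusted p = 0.0161) and 0.38 (SE 0.10, adjusted p = 0.0492), which pass the adjusted p in each arm and stay below the fold of 1.5. With the replicate block within the arm its adjusted p in Ctrl TFs was 0.0605. The fold in the mean of the arms was 1.36 (log2 0.44, SE 0.06, adjusted p = 6.98e-05). Per kilobase, *Insig1* went from 43.7 to 20.6 CPM per kb and *Insig2* from 36.7 to 50.9 CPM per kb between the Ctrl means in 20% and 1% O2.

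*Srebf2* encodes the SREBP that mainly drives cholesterol synthesis and was called lower in the libraries labelled cKO (log2 fold change -0.67, SE 0.17, adjusted p = 0.0378). In 20% O2, *Srebf2* stood at 174, 173 and 201 CPM in Ctrl TFs, 200, 143 and 163 CPM in the libraries labelled cKO and 158, 188 and 221 CPM with gesicles, and in 1% O2 at 131, 156 and 134 CPM, 86.6, 114 and 117 CPM and 161, 144 and 111 CPM. The O2 levels overlapped in the gesicle arm. The call held under 15 of 30 alternatives. *Srebf1*, which mainly drives fatty acid synthesis, and *Scap* had log2 fold changes of -0.64 to -0.14 and -0.58 to -0.20 in the 3 arms and were not called by edgeR, while 6 of 30 alternatives called *Srebf1* and 1 *Scap* in the arm labelled cKO.

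*Stard4*, a carrier of cholesterol between membranes, fell in all 3 arms. In 20% O2, *Stard4* stood at 25.6, 28.4 and 26.8 CPM in Ctrl TFs, 29.4, 22.2 and 22.8 CPM in the libraries labelled cKO and 19.1, 30 and 29.5 CPM with gesicles. In 1% O2, *Stard4* stood at 16.8, 15.4 and 12.5 CPM, 11.7, 10 and 11.9 CPM and 15.4, 10.5 and 7.61 CPM. No library in 1% O2 reached the lowest in 20% O2, and *Stard4* fell by 0.86 (SE 0.22, adjusted p = 0.0494), 1.15 (SE 0.23, adjusted p = 0.011) and 1.23 (SE 0.23, adjusted p = 0.00813) on the log2 scale. With the replicate block its adjusted p in Ctrl TFs was 0.0547, and 14 of 30 alternatives called it there. *Mylip*, a ligase that marks lipoprotein receptors for breakdown, was higher in the mean of the arms without reaching the fold minimum (log2 fold change 0.44, SE 0.14, adjusted p = 0.0306), and *Npc1*, which moves cholesterol out of lysosomes, had log2 fold changes of -0.32 to 0.15 in the 3 arms.

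*Nr1h3*, which encodes LXR alpha, was the 1 gene of the 30 called higher by edgeR, by 5.51-, 5.45- and 4.71-fold in the 3 arms, from a low level. In 20% O2, *Nr1h3* stood at 1.1, 1.54 and 1.19 CPM in Ctrl TFs, 1.11, 0.993 and 0.929 CPM in the libraries labelled cKO and 1.71, 1.79 and 1.07 CPM with gesicles, which correspond to 31 to 79 counts a library. In 1% O2, *Nr1h3* stood at 7.07, 6.44 and 7.57 CPM, 4.41, 5.67 and 6.25 CPM and 7.55, 7.41 and 6.56 CPM. All libraries in 1% O2 were above all in 20% O2, with log2 fold changes of 2.46 (SE 0.22, adjusted p = 1.26e-05), 2.45 (SE 0.23, adjusted p = 2.55e-05) and 2.24 (SE 0.22, adjusted p = 5.01e-05). The call held under every alternative tried in each arm. *Nr1h2*, which encodes LXR beta, had a level of 23.5 CPM per kb in Ctrl TFs in 20% O2, where *Nr1h3* had 0.507 CPM per kb, and its log2 fold changes were 0.03 to 0.18 and not called.

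*Abca1* and *Abcg1*, exporters of cholesterol and known targets of LXR, were not called in any arm by edgeR, while DESeq2 called *Abcg1* in the Ctrl arm (adjusted p = 0.0391). *Abca1* stood at 8.28 to 31.7 CPM over the 18 libraries and had log2 fold changes of -0.50, -0.32 and 0.02 (SE 0.40 to 0.41). *Abcg1* stood at 0.778, 1.92 and 0.517 CPM in Ctrl TFs in 20% O2 and at 15.1, 1.97 and 0.855 CPM in 1% O2. The high value was in replicate 1 of Ctrl in 1% O2, and the log2 fold change was 2.47 with it (SE 0.90, adjusted p = 0.155) and 0.35 without it (adjusted p = 0.901). In the other 4 groups *Abcg1* lay between 0.632 and 3.98 CPM.

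Over both O2 levels and all arms, 7 members were lower in all 9 libraries in 1% O2 than in all 9 in 20% O2, namely *Hmgcs1*, *Mvd*, *Idi1*, *Fdft1*, *Sqle*, *Insig1* and *Stard4*, and 2 were higher, *Insig2* and *Nr1h3*. Of all genes tested 0.952% were lower and 2.4% higher in this way. Another 36 genes of the pathway that are not among the 30 were counted beside them. In the 3 arms 1, 3 and 3 of these 36 fell, as did 0.674%, 1.07% and 0.767% of all genes tested. None of the 36 rose (2.01%, 1.94% and 1.64% of all genes), and their median log2 fold changes were -0.00, -0.07 and -0.01. In the mean of the arms *Ch25h*, which makes 25-hydroxycholesterol, fell by 1.76 (SE 0.39, adjusted p = 0.00436) from a low level of 0.0913 to 1.25 CPM in 20% O2, and *Abcg4*, an exporter, rose by 1.04 (SE 0.25, adjusted p = 0.00629) on the log2 scale. In the Ctrl libraries *Ch25h* held 4, 23 and 3 counts in 20% O2 and 3, 4 and 5 in 1% O2. *Abcg4* was also low, at 0.136 to 0.831 CPM in 20% O2 and 0.893 to 1.43 CPM in 1% O2. *Nceh1*, a cholesterol ester hydrolase, fell with gesicles (log2 fold change -0.68, SE 0.16, adjusted p = 0.0345).

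Between the libraries labelled cKO and Ctrl TFs, no member was called at either O2 level by edgeR, where 0.538% of all genes were called in 20% O2 and 0.0866% in 1% O2. At an unadjusted p under 0.05 there were 3 members in 20% O2 and 7 in 1% O2 (15.3% and 17.8% of all genes). DESeq2 called 1 member at each level. Its calls over all genes lay within the ranges of the alternatives, 55 to 1522 in 20% O2 and 6 to 1211 in 1% O2. Limma voom with quality weights called 2 members at each level, where it called 1522 and 1211 of the 16174 genes tested. The gene called by both of these tools at both levels was *Npc1*. In 20% O2 it stood at 31.6, 23.1 and 27.2 CPM in Ctrl TFs and at 18.8, 14.2 and 16.9 CPM in libraries labelled cKO, and in 1% O2 at 18, 27.2 and 20.9 CPM and 12.9, 13.3 and 13.6 CPM. The groups did not overlap at either level, and the log2 fold changes were -0.72 (SE 0.18, adjusted p = 0.0855) and -0.73 (SE 0.18, adjusted p = 0.127). With offsets for length and base composition of each gene they were -0.42 and -0.39, and *Npc1* shares 601 exonic bases with *Rmc1* and *Gm15956* on the other strand.

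In 20% O2, 15 of the 18 enzymes had a higher mean in the libraries labelled cKO, with a median log2 fold change of 0.27 beside 0.04 for all genes, and none was called. The groups did not overlap for 8 members that were higher and 2 that were lower, shares of all genes tested being 10.7% and 10.3%. *Hmgcs1* differed by 0.12 (95% interval -0.15 to 0.39), and *Tm7sf2* by 0.60 (0.10 to 1.10, adjusted p = 0.268). In 1% O2 the median was -0.06 and 7 enzymes were higher. The groups there did not overlap for 9 members that were lower in the libraries labelled cKO (15% of all genes) and for 1 that was higher (12%). *Lss* (log2 fold change -0.69, 95% interval -1.13 to -0.24, adjusted p = 0.185), *Hsd17b7* (-0.56, -0.86 to -0.26, adjusted p = 0.141) and *Scap* (-0.72, -1.22 to -0.22, adjusted p = 0.196) were among these 9.

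**Figure D4:**
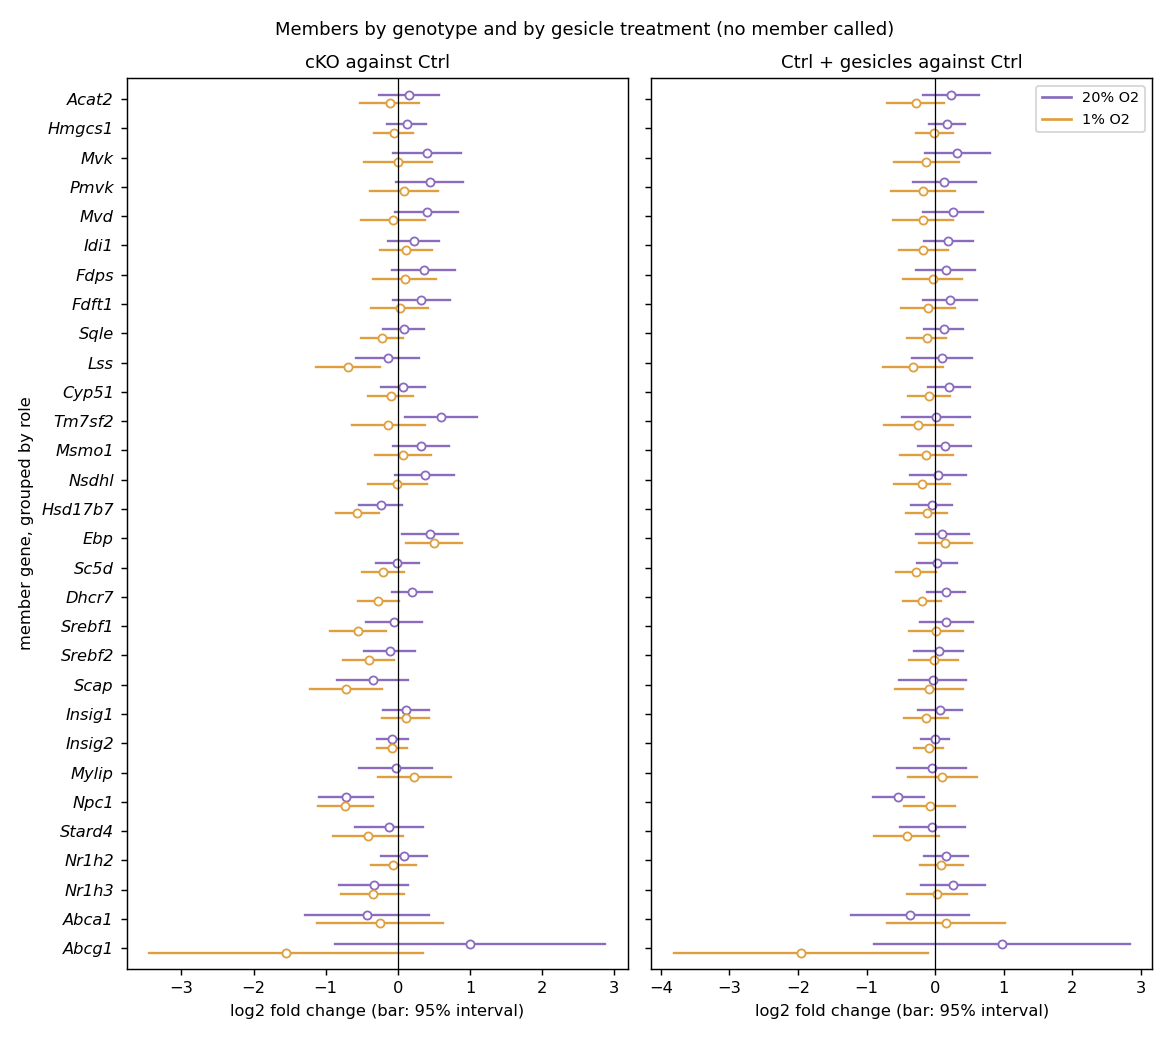
Log2 fold change (x axis, bars of the 95% interval) of the 30 genes (y axis) between the libraries labelled cKO and Ctrl (left) and between gesicle-treated and untreated Ctrl (right), in 20% and 1% O2. No point was called, and the bars of *Npc1* lie below 0 at both O2 levels on the left.

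Between gesicle-treated and untreated Ctrl TFs no member was called in 20% or 1% O2 by edgeR, DESeq2 or limma voom, where edgeR called 0.0247% of all genes in 20% O2 and 0% in 1% O2. At an unadjusted p under 0.05 there was 1 member at each level (3.67% and 2% of all genes), *Npc1* in 20% O2 (log2 fold change -0.54, 95% interval -0.91 to -0.17, adjusted p = 0.883) and *Abcg1* in 1% O2 (-1.95, -3.81 to -0.10, adjusted p = 1), where the high library of Ctrl replicate 1 enters. The enzymes had median log2 fold changes of 0.15 in 20% O2 and -0.15 in 1% O2. *Hmgcs1*, *Insig1* and *Nr1h3* were not called at either level, and *Insig2* was the 1 member whose gesicle libraries were all lower in 1% O2, as were 3.35% of all genes (158, 169 and 171 CPM against 180, 172 and 179 CPM).

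Whether the O2 response differed between arms was tested as an interaction. No member passed, nor did any other gene, when Ctrl TFs were compared with the libraries labelled cKO or with gesicle-treated TFs by edgeR, and DESeq2 and limma voom called no member. At an unadjusted p under 0.05 there were 2 members in the former comparison, *Dhcr7* (-0.47, 95% interval -0.86 to -0.08) and *Tm7sf2* (-0.73, -1.44 to -0.02), and 1 in the latter, *Abcg1* (2.73% and 1.5% of all genes). The interaction was negative for 17 of the 18 enzymes in each comparison, with medians of -0.30 and -0.30 beside -0.04 and -0.01 for all genes. Both comparisons share the Ctrl libraries. Without Ctrl replicate 1 in 1% O2 the medians were 0.01 and -0.06, and 8 and 13 enzymes were negative. For *Nr1h3* the interaction was -0.01 (95% interval -0.71 to 0.68) and -0.23 (-0.86 to 0.41), and for *Insig1* -0.00 (-0.46 to 0.45) and -0.20 (-0.66 to 0.25).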

How the data were processed

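RNA-seq libraries were trimmed, mapped and counted by the authors, who used cutadapt 4.8, STAR 2.7.8a on the mouse genome GRCm38 and RSEM 1.3.3, as their methods and submitters' processing notes state. The deposited values are estimated counts per gene, given as whole numbers with no normalization.

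Counts were tested with edgeR 4.0.16 (R 4.3.3): genes with low counts were removed (filterByExpr), libraries were scaled by TMM, and a quasi-likelihood fit with 1 coefficient per group over all 18 libraries gave each contrast. Adjusted p-values are Benjamini-Hochberg values over the 16174 genes tested, and a call needs an adjusted p under 0.05 and a fold of at least 1.5. Intervals are 95% intervals from the same fit. The fit was tested on simulated counts. CPM values use the TMM library sizes, and differences by library use log2(CPM + 0.5). Levels per kilobase use the summed exon length of a gene in the annotation, which 55141 of 55491 rows matched. Alternatives were DESeq2 1.42.0, limma 3.58.1 with voom and quality weights, RLE factors, other filters, no fold minimum, fewer libraries, a replicate block, *Xist* as a covariate, and offsets for GC content and gene length. The voom fit, the offsets and the removal of a pair of libraries were chosen after seeing the data.

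Members and lists were chosen with earlier results of these data known. Values in every library are given for members called in at least 1 comparison, and for *Insig2*, and those of *Npc1* and *Abcg1* for some groups, and these 3 were added after their values were seen. Other pathway genes were to be named where called, at most 6, and some genes that this rule covers are not reported here. Labels number the replicates 1 to 3 in each group. Deviations from the group mean correlated above 0.1 in every same-numbered pair between Ctrl in 20% and 1% O2 (0.32, 0.331 and 0.581) and between gesicle-treated and untreated Ctrl, and not in the other comparisons, so the numbers were taken to pair the former. No 2 libraries agreed within sampling noise (smallest chi-square per degree of freedom 14.6). Promoter windows came from RefSeq on GRCm38.p6.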

Additional observations from a re-analysis of the deposited data

Results flagged for a closer look

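The count table holds rows for transgene sequences that no comparison used. The row for *cre* reached 5 counts in replicate 2 labelled cKO in 20% O2, and the row for *egfp* reached 5 counts in the same library and in replicate 3 labelled cKO in 1% O2. Both rows were at 0 in all Ctrl and gesicle-treated libraries, which at a count of 0 allows up to 3 counts, and both were also at 0 in the shallow library of replicate 1 labelled cKO in 1% O2. The row for *tdTomato* reached 3 counts in the gesicle-treated libraries. These counts are too few for a level, and they cover counting error only.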

How the results depend on the processing

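No called value changed direction under the alternatives run. Of 120 O2 responses of the members (30 in each arm and in their mean), 11 that were not called changed sign under at least 1 alternative. In the arm labelled cKO these included *Abcg1* (0.0437 by DESeq2, 0.17 with GC and length offsets), *Ebp* (0.0478 by limma voom) and *Abca1* (0.20 by limma voom, 0.0273 with the offsets), and with gesicles *Abca1* (-0.0069 by DESeq2 with the replicate block, -0.0045 with the block within each arm). In the mean of the arms they were *Abcg1* (-0.23 by limma voom, -0.23 without both replicate 1 libraries that stood apart) and *Npc1* (0.0726 with the offsets). Leaving out 1 library at a time gave ranges of -0.51 to 0.0381 for *Pmvk* and -0.39 to 0.0096 for *Tm7sf2* in Ctrl, -0.29 to 0.14 for *Ebp*, -0.0812 to 0.18 for *Nr1h2*, -0.57 to 0.27 for *Abca1* and -0.64 to 0.37 for *Abcg1* in the arm labelled cKO, -0.0264 to 0.25 for *Nr1h2*, -0.21 to 0.25 for *Abca1* and -1.03 to 0.28 for *Abcg1* with gesicles, and -0.0585 to 0.89 for *Abcg1* in the mean of the arms. Between gesicle-treated and untreated Ctrl in 1% O2, *Abcg1* was at 0.18 by limma voom, 0.13 without both replicate 1 libraries and -2.51 to 0.15 without 1 library. The interaction of cKO and O2, near 0 as reported, was positive for *Insig1* with RLE factors (0.0219), no filter (0.0075), a CPM filter (0.0034), DESeq2 (0.0209, and 0.0398 with the block), the edgeR block (0.0147, and 0.0148 within each arm), the offsets (0.0564) and without both replicate 1 libraries (0.19), and ranged from -0.0973 to 0.20 without 1 library. That of *Nr1h3* was positive with RLE factors (0.0099), no filter (0.0014), DESeq2 (0.0424, and 0.0341 with the block), limma voom (0.0456), the offsets (0.11) and without both libraries (0.11), and ranged from -0.12 to 0.13. *Hmgcs1*, *Insig1* and *Nr1h3* were called in each arm under all alternatives run. In the Ctrl arm, 12 members were called by limma voom with quality weights in place of 6, and in the mean of the arms 23 without a fold minimum in place of 12. Between the libraries labelled cKO and Ctrl, where edgeR called 0, DESeq2 called 1 in 20% O2 and 1 in 1% O2, both with and without the replicate block, and limma voom 2 and 2. Leaving out 1 library at a time gave 3 to 9 members in the Ctrl arm, 8 to 16 in the arm labelled cKO, 6 to 16 with gesicles and 11 to 15 in the mean of the arms, and 0 in the other comparisons. A group left with 2 libraries takes its spread from all groups. With the replicate block as a term in edgeR, 5, 12 and 14 members were called in the 3 arms and 12 in their mean. In the Ctrl arm, where the numbers pair, the block ended the call of *Stard4* (adjusted p = 0.0547, and 0.114 within the arm) and, within the arm, that of *Hsd17b7*. In the other arms not every same-numbered pair correlated above 0.1, and whether the numbers pair those libraries is not known. With the block, *Srebf2* in the arm labelled cKO (adjusted p = 0.0547) was not called. Within the arm, *Dhcr7* with gesicles (adjusted p = 0.0518) was not called. Without both replicate 1 libraries that stood apart, 9, 13 and 15 members were called in the 3 arms. The ranges over all genes below exclude runs without 1 library or both replicate 1 libraries, and the run without a fold minimum. Over all genes, calls ranged from 298 to 1556 in the Ctrl arm (434 as reported), from 333 to 2707 in the arm labelled cKO (487), from 391 to 853 with gesicles (390), from 55 to 1522 between the libraries labelled cKO and Ctrl in 20% O2 (87) and from 6 to 1211 in 1% O2 (14), with the highest counts from limma voom except with gesicles, where DESeq2 with the block gave it. The cause of these shifts was not tested. Between gesicle-treated and untreated Ctrl the calls over all genes were 3 to 60 in 20% O2 (4) and 0 to 1 in 1% O2 (0), and in the interactions 0 to 4 and 0 to 5 (0 and 0). Depth limits *Nr1h3*, *Abcg1* and *Ch25h* in the shallow library.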
